A study of Homo sapiens with 2 samples.

Results

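Intermediate filament genes were followed in HES2, a long-established human embryonic stem cell line. The genes are VIM, NES, KRT8 and any further keratin with a symbol of KRT and a number, and they were found by symbol in the authors' deposited table. The search gave 4 rows of 2005, namely KRT8, KRT16, VIM and NES. The knockdown cells carried a lentivirus with a short hairpin RNA against TFCP2L1 (the Tfcp2l1 shRNA group), and the controls carried a scrambled one (the scramble group). TFCP2L1 is a DNA-binding factor related to CP2 and grainyhead, best known for its role in mouse stem cell pluripotency. Both groups were infected cultures kept for 3 passages in medium with 10% KSR, and FGF2 and Activin A were added at 10 ng/ml each. The labels do not say how many hairpins or clones were used. Each group had 1 library, so no value below has a replicate check and none was tested. A difference between the libraries cannot be told apart from any other difference between the 2 cultures.

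Intermediate filaments are ropes of coiled-coil proteins that give cells mechanical strength. Keratins form them in epithelia as obligate pairs of a type I (acidic) and a type II (basic) protein, vimentin is the type III protein of mesenchymal and many cultured cells, and nestin is a type IV protein of neural progenitors and other immature cells that assembles together with vimentin. KRT8, paired with KRT18, is the keratin of simple epithelia and appears early in the embryo, and human embryonic stem cells in culture are known to carry vimentin and KRT8. All members of the family share a central rod domain whose last part, the helix termination motif, is its most conserved stretch.

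The coding bases of that motif are shown for KRT16, because its likeness to its neighbours bears on its value, and for NES, a member of another type. They were read from GENCODE transcripts, with the motif in capitals and 18 bases on each side. KRT14 and KRT17, further type I keratins that lie next to KRT16 on chromosome 17, are given for comparison.
NES: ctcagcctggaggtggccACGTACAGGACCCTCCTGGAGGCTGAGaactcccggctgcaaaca
KRT16: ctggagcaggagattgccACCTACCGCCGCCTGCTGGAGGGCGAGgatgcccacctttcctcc
KRT14: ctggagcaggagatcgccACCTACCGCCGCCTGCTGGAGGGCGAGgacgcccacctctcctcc
KRT17: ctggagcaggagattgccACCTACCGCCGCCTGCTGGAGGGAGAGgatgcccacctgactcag
KRT16 and KRT14 had the same base at all 27 motif positions and at 60 of the 63 bases shown. KRT16 and KRT17 were the same at 56 of 63, and KRT16 and NES at 37 of 63.

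All 4 genes were higher in the Tfcp2l1 shRNA library. Levels are given in FPKM, reads scaled to gene length and library depth, as deposited by the authors. KRT8 was at 640 FPKM in the Tfcp2l1 shRNA library, against 293 FPKM in the scramble library. NES was at 252 FPKM in the Tfcp2l1 shRNA library and 95.9 FPKM in the scramble library, and VIM was at 215 FPKM in the Tfcp2l1 shRNA library and 85.6 FPKM in the scramble library. KRT16 was at 1.07 FPKM in the Tfcp2l1 shRNA library and 0.10 FPKM in the scramble library, far below the other three. The 3 abundant genes were thus already high in the control cells, and KRT16 was near the bottom of the range there.

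**Figure D1:**
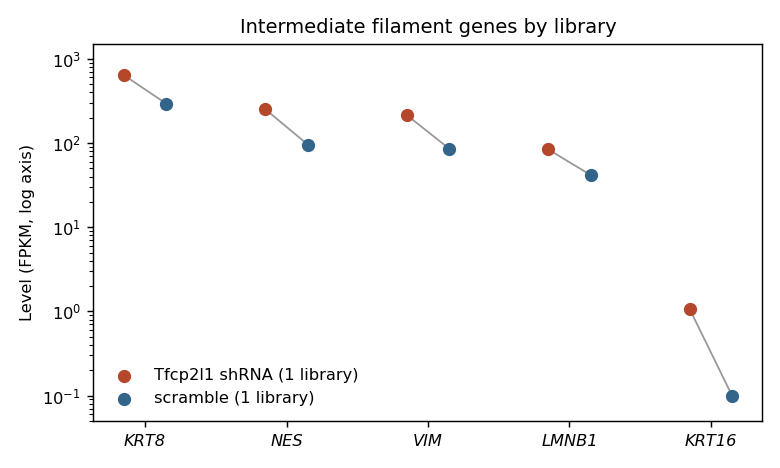
Level in FPKM (log axis) of 5 intermediate filament genes in the Tfcp2l1 shRNA library (left point of each pair) and the scramble library (right point), 1 library each. All 5 pairs slope down to the scramble library, from 640 to 1.07 FPKM across genes in the Tfcp2l1 shRNA library.

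The order of the levels was the same in both libraries: KRT8, then NES, then VIM, then KRT16. In the Tfcp2l1 shRNA library KRT8 stood at 2.97 times the level of VIM, against 3.43 times in the scramble library. NES stood at 1.17 times the level of VIM in the Tfcp2l1 shRNA library and 1.12 times in the scramble library, so these neighbours in the order lay close together. Of the summed FPKM of the 4 genes (1108 in the Tfcp2l1 shRNA library and 475 in the scramble library), KRT8 made up 57.7% in the Tfcp2l1 shRNA library and 61.8% in the scramble library. The sum in the Tfcp2l1 shRNA library was 2.33 times that in the scramble library.

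Reads were inferred from the deposited values, which hold no counts, and came to about 22690000 in the Tfcp2l1 shRNA library and 23470000 in the scramble library. KRT8 had about 25205 reads in the Tfcp2l1 shRNA library and 11952 in the scramble library, a ratio of 2.18 with an interval of 2.13 to 2.23. Ratios are Tfcp2l1 shRNA over scramble, scaled by depth, and the 95% intervals are exact by Clopper and Pearson's method and speak of counting error alone. VIM had 9296 reads in the Tfcp2l1 shRNA library and 3827 in the scramble library, a ratio of 2.51 (interval 2.42 to 2.61). NES, the longest of these transcripts, had 31566 reads in the Tfcp2l1 shRNA library and 12436 in the scramble library, a ratio of 2.63 (interval 2.57 to 2.68). The intervals of VIM and NES overlapped, and that of KRT8 lay below both.

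KRT16 rested on far fewer reads. It had 40 reads in the Tfcp2l1 shRNA library and 4 in the scramble library, a ratio of 10.3 with an interval of 3.74 to 39.8. The interval lay above those of the other genes, but it is wide. With 0.1 FPKM added to both levels, the log2 ratio of KRT16 was 2.55, and with 1 FPKM added it was 0.91, so its place among the 2-fold genes depends on that choice. The log2 ratios of the other genes with 0.1 FPKM added were 1.12 for KRT8, 1.33 for VIM and 1.39 for NES. The authors' deposited table gives KRT16 a false discovery rate of 1.96e-08, from a test that compares the reads of these 2 libraries and not the conditions.

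**Figure D2:**
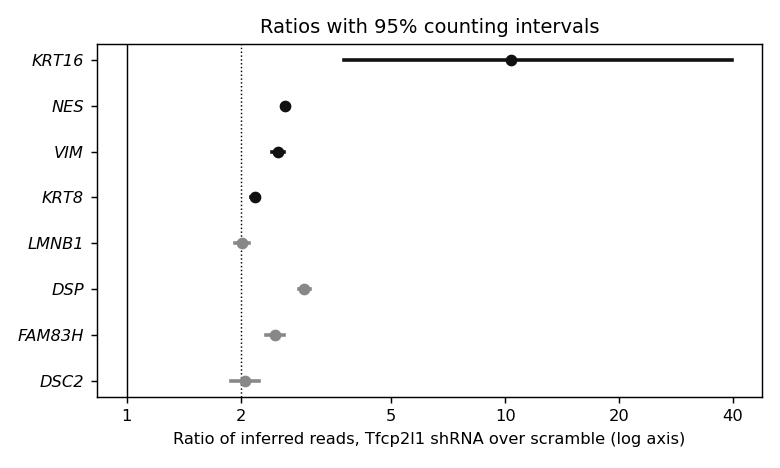
Ratio of inferred reads, Tfcp2l1 shRNA over scramble (log axis), for the 4 intermediate filament rows (black) and for LMNB1 and 3 linker genes (grey), with bars for the 95% counting intervals, a solid line at 1 and a dotted line at 2. The bar of KRT16 runs from 3.74 to 39.8, while those of NES, VIM and KRT8 lie between 2.13 and 2.68.

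The direction has to be read against the table that holds these genes. In the authors' deposited table every row differs by at least 2-fold, and 54.1% of its rows are higher in the Tfcp2l1 shRNA library. By a rule of size (at least 2-fold with 0.1 FPKM added, and 1 FPKM or more in at least 1 library) all 4 rows were higher, against 40.8% of all rows (and 35.4% that were at least 2-fold lower). The counting interval lay wholly above 2 for all 4, against 37.6% of all rows. Since VIM, NES and KRT8 were picked by name with these results known, and a row exists only for a gene past the authors' limits, these counts describe the genes and are no evidence about the family.

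In level the 3 abundant genes stood near the top of the table, and in ratio they did not. KRT8 had rank 4 of 2005 by level in the Tfcp2l1 shRNA library and rank 6 in the scramble library, NES had rank 12 in the Tfcp2l1 shRNA library and 18 in the scramble library, and VIM had rank 14 in the Tfcp2l1 shRNA library and 22 in the scramble library. The median level over all rows was 1.99 FPKM in the Tfcp2l1 shRNA library and 1.76 FPKM in the scramble library. By gain in level KRT8 (346 FPKM) had rank 4, NES (156 FPKM) rank 13 and VIM (129.5 FPKM) rank 15. By log2 ratio, 78.6% of the 1084 higher rows were above KRT8, 61.7% above VIM, 56.6% above NES and 15.9% above KRT16. Of the 22 rows at or above the scramble level of VIM, 10 were higher and 12 lower in the Tfcp2l1 shRNA library, and KRT8, NES and VIM were 3 of those 10.

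**Figure D3:**
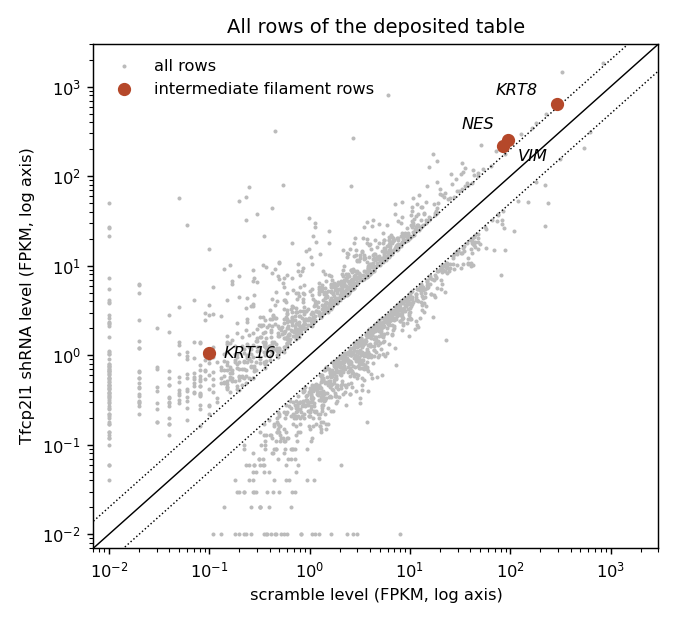
Level of every row in the Tfcp2l1 shRNA library (vertical) against the scramble library (horizontal), in FPKM on log axes, with the 4 intermediate filament rows in red, a solid line at equal levels and dotted lines at 2-fold. KRT8, NES and VIM sit at the upper end just outside the dotted line, and KRT16 sits at low level further from it; the empty band is the authors' 2-fold limit.

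Most of the family had no row in that table, and nothing is said about their levels. Of 69 intermediate filament genes in 5 lists, 5 had a row, all of them higher, with a median log2 ratio of 1.33, against 1.496 over all 1084 higher rows and 1.01 over all rows. That is 7.25% of the lists, against 10.8% of the 18489 genes that the authors appear to have tested in either direction, of which 5.86% were listed as higher and 4.98% as lower. Of 28 type I keratins KRT16 alone had a row, and of 26 type II keratins KRT8 alone did. KRT18, the partner of KRT8, and the partners of KRT16 (KRT6A, KRT6B and KRT6C) had none, nor did KRT7 and KRT19, further keratins of simple epithelia. VIM was the listed gene of 4 type III genes, beside DES, GFAP and PRPH, and NES that of 6 type IV genes, which include the neurofilament genes, INA and SYNM.

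The fifth gene of the family lists was LMNB1, which encodes lamin B1 of the nuclear lamina. LMNB1 was at 83.9 FPKM in the Tfcp2l1 shRNA library and 41.7 FPKM in the scramble library. On 6387 reads in the Tfcp2l1 shRNA library and 3282 in the scramble library its ratio was 2.01 (interval 1.93 to 2.10), so its interval spans 2 and it lies at the authors' 2-fold limit.

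Of 20 genes that link filaments to each other or to cell junctions 3 had a row (15%, near the 10.8% of all tested genes), all higher, with a median log2 ratio of 1.30. DSP, which encodes desmoplakin and ties keratin filaments to desmosomes, was at 61.4 FPKM in the Tfcp2l1 shRNA library and 20.9 FPKM in the scramble library (ratio 2.94, interval 2.85 to 3.05). FAM83H, a protein that acts on keratin organisation, was at 28.8 FPKM in the Tfcp2l1 shRNA library and 11.7 FPKM in the scramble library (ratio 2.47, interval 2.34 to 2.61). DSC2, a desmosomal cadherin, was at 13.7 FPKM in the Tfcp2l1 shRNA library and 6.67 FPKM in the scramble library (ratio 2.05, interval 1.88 to 2.23). Each of these 3 was well below KRT8 in level in both libraries. Among 13 kinases and chaperones that act on filaments 2 had a row (15.4%, also near 10.8%), and they differed in direction. CRYAB, a small heat shock chaperone of filaments, was lower, at 2.30 FPKM in the Tfcp2l1 shRNA library and 9.34 FPKM in the scramble library (ratio 0.247, interval 0.176 to 0.340). HSPA1A, which has a near-identical copy and is therefore uncertain, was at 28.7 FPKM in the Tfcp2l1 shRNA library and 13.6 FPKM in the scramble library.

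VIM, NES and KRT8 are used as markers of different states, so the other markers of those states are given beside them. VIM is a marker of the mesenchymal transition, and 9 of 18 further genes of that transition had a row (50%, against 10.8% of all tested genes). Their median log2 ratio was 1.15, and S100A4 was the lower one of the 9. The highest were TAGLN (226 FPKM in the Tfcp2l1 shRNA library and 51.5 FPKM in the scramble library), TWIST1 (0.74 FPKM with Tfcp2l1 shRNA, 0.13 FPKM with scramble) and ZEB2 (0.27 FPKM on 56 reads with Tfcp2l1 shRNA, no reads with scramble), and the lowest were S100A4 (0.99 FPKM with Tfcp2l1 shRNA, 3.72 FPKM with scramble), ZEB1 (0.72 FPKM with Tfcp2l1 shRNA, 0.36 FPKM with scramble) and ACTA2 (2.80 FPKM with Tfcp2l1 shRNA, 1.25 FPKM with scramble). All the listed members but S100A4 were thus higher, as VIM was, while 54.1% of all rows were higher. The other 9 genes of the list, CDH1, EPCAM, SNAI1 and SNAI2 among them, had no row, and nothing is said about their levels. By the rule of size above, 5 of the 9 genes with a row were at least 2-fold higher, against 40.8% of all rows. By the same rule 1 of the 9 was at least 2-fold lower, against 35.4% of all rows. TWIST1, ZEB1 and ZEB2 were below 1 FPKM in both libraries. NES is a marker of neural progenitors, and 6 of 18 further genes of that list had a row. That is 33.3%, against 10.8% of all tested genes, with 3 higher and 3 lower. CDH2 was at 62.8 FPKM in the Tfcp2l1 shRNA library and 19.7 FPKM in the scramble library. MSI1 was at 26.6 FPKM with Tfcp2l1 shRNA and 12.6 FPKM with scramble, and SIX3 at 0.38 FPKM with Tfcp2l1 shRNA and no reads with scramble. CDH2 also stands in the mesenchymal transition list, so it is counted among the higher genes of both lists. SOX3 (8.82 FPKM with Tfcp2l1 shRNA, 24.4 FPKM with scramble), SOX2 (86.1 FPKM with Tfcp2l1 shRNA, 180 FPKM with scramble) and DLL1 (1.42 FPKM with Tfcp2l1 shRNA, 3.08 FPKM with scramble) were lower. The listed neural genes thus lay on both sides, and NES was with the higher ones. KRT8 is a marker of simple epithelia, trophectoderm and amnion, and 3 of 18 further genes of that mixed list had a row (16.7%, against 10.8% of all tested genes), all lower: GABRP (0.37 FPKM with Tfcp2l1 shRNA, 2.53 FPKM with scramble), TFAP2C (6.95 FPKM with Tfcp2l1 shRNA, 14.8 FPKM with scramble) and IGFBP3 (0.97 FPKM with Tfcp2l1 shRNA, 2.04 FPKM with scramble). KRT8 was higher, and nothing is said about the 15 genes of the list without a row.

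Markers of endoderm that had a row were higher, and markers of the undifferentiated state that had one were lower. Of 14 definitive endoderm genes 12 had a row (85.7%), all higher. Of all tested genes 10.8% had a row, 5.86% as higher and 4.98% as lower. This list was chosen with earlier results of these data known. Its rows had a summed level of 1126 FPKM in the Tfcp2l1 shRNA library and 9.91 FPKM in the scramble library. CER1, a secreted inhibitor of Nodal and BMP signals, made up most of both sums, at 798.8 FPKM in the Tfcp2l1 shRNA library and 6.11 FPKM in the scramble library. FOXA2, an endoderm transcription factor, was at 56.5 FPKM in the Tfcp2l1 shRNA library and 0.05 FPKM in the scramble library. SOX17, another, was at 26.6 FPKM with Tfcp2l1 shRNA and had no reads with scramble, and EOMES was at 76.0 FPKM with Tfcp2l1 shRNA and 0.25 FPKM with scramble. These 3 were thus at 0.25 FPKM or less in the scramble library. Endoderm genes with low ratios in this list included HHEX (15.5 FPKM with Tfcp2l1 shRNA, 0.98 FPKM with scramble) and FOXA1 (0.34 FPKM with Tfcp2l1 shRNA, 0.04 FPKM with scramble). Of 14 genes of undifferentiated cells 9, POU5F1 and NANOG among them, had no row, and nothing is said about their levels. The other 5 had a row (35.7%, against 10.8% of all tested genes), all lower. These 5 had a summed level of 204 FPKM in the Tfcp2l1 shRNA library and 552 FPKM in the scramble library. They were UTF1 (14.8 FPKM with Tfcp2l1 shRNA, 88.7 FPKM with scramble), DPPA2 (5.59 FPKM with Tfcp2l1 shRNA, 18.8 FPKM with scramble), PODXL (79.1 FPKM with Tfcp2l1 shRNA, 222 FPKM with scramble), PRDM14 (18.3 FPKM with Tfcp2l1 shRNA, 42.4 FPKM with scramble) and SOX2. The part of these shifts in the levels of VIM, NES and KRT8 was not tested, and in bulk RNA more cells of a type and more RNA per cell cannot be told apart. TFCP2L1 itself was at 0.33 FPKM in the Tfcp2l1 shRNA library and 3.19 FPKM in the scramble library (ratio 0.103, interval 0.0793 to 0.132).

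**Figure D4:**
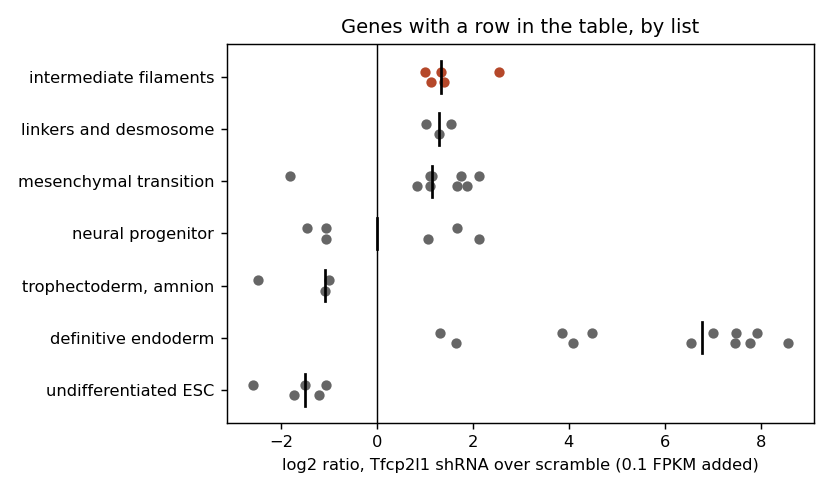
Log2 ratio, Tfcp2l1 shRNA over scramble with 0.1 FPKM added, of each gene that has a row in the table, by list, with 1 point a gene and a bar at the list's median. The intermediate filament genes lie between 1.01 and 2.55, below most definitive endoderm genes, and the undifferentiated genes lie below 0.

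Genes whose levels in the 2 libraries were nearest to those of the abundant filament genes were looked up by distance in log2 level over both libraries. VIM and NES were nearest to each other, at a distance of 0.28. SLC7A5, an amino acid transporter, was near both VIM (0.28) and NES (0.52), at 177 FPKM in the Tfcp2l1 shRNA library and 87.6 FPKM in the scramble library. COL6A1, a collagen chain, was near VIM (0.30), at 191 FPKM with Tfcp2l1 shRNA and 72.1 FPKM with scramble, and TUBA1A, an alpha tubulin, was near NES (0.46), at 294 FPKM with Tfcp2l1 shRNA and 127 FPKM with scramble. Rows lay further from KRT8, with TAGLN2, an actin-binding protein, at a distance of 0.54 (490 FPKM in the Tfcp2l1 shRNA library and 225 FPKM in the scramble library), the beta tubulin TUBB2A at 0.98 (396 FPKM with Tfcp2l1 shRNA, 181 FPKM with scramble) and the neuropeptide gene GAL at 1.20 (1455 FPKM with Tfcp2l1 shRNA, 327 FPKM with scramble). The tubulin genes have close copies, so their levels are uncertain.

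How well each level belongs to its own gene differs between these genes. The share of 31-base words of the gene's transcript that also occur in a transcript of another gene was 0% for NES, 41.4% for VIM, 39.5% for KRT16 and 56.6% for KRT8. KRT8 shares words with 47 of its own pseudogenes, led by KRT8P3 with 33.8% of its words. VIM shares 611 of its 2105 words with VIM-AS1 and 261 with AL133415.1. VIM-AS1 runs antisense over it, and no source used here gives the strand setting, so reads of the pair cannot be told apart. KRT16 shares words with 15 other genes, 6 of them its own pseudogenes, led by KRT16P3 (23.1%) and KRT14 (18.2%). KRT17 is among the 15 as well. The sequences above show runs of at least 31 equal bases between KRT16 and each of KRT14 and KRT17. KRT14, KRT17 and VIM-AS1 had no row. The levels of KRT8, KRT16 and VIM are therefore uncertain, and the shares of words do not say by how much. The level of NES is free of this uncertainty by this measure. KRT8 also overlaps KRT18 in the RefSeq annotation.

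VIM and NES, the pair nearest in level and ratio, have unlike promoter windows. The windows come from RefSeq on GRCh38.p14, which is not the authors' build (hg19), and run from 250 bases before to 50 after the gene's start, with GC boxes (GGGCGG on either strand) in capitals.
VIM promoter, chr10:17227991-17228290, plus strand: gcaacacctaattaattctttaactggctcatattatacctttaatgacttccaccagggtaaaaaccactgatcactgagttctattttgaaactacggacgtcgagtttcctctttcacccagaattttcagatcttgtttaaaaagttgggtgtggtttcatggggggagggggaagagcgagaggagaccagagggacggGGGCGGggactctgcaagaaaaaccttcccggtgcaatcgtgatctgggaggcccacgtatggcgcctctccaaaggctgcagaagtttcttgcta
NES promoter, chr1:156677358-156677657, minus strand: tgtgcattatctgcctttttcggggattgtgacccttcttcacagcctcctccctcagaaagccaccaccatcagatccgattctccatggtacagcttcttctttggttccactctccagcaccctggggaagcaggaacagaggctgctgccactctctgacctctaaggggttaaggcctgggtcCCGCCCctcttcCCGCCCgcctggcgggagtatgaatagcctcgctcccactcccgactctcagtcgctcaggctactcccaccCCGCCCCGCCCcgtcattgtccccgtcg
The VIM window has 48.0% G and C and 1 GC box, and the NES window has 60.3% and 4 (the last pair of them overlap), against a median of 58.7% over 35116 windows, 45.0% of which hold a GC box. Neither holds a TATA box (TATAAA, in 11.5% of windows), a CCAAT box (CCAAT, 34.6%), an AP-1 motif (TGANTCA, 7.71%) or a TCF/LEF core (CTTTGA, 12.9%) on either strand. The CP2 tandem motif, named for the family of TFCP2L1, occurs once in each, as it does in 60.3% of all windows, and in NES it overlaps GC boxes. The KRT8 window holds 1 CP2 tandem motif and none of the other motifs. It stands at 1 of 9 coding starts of KRT8, and not at the start of the RefSeq-matched transcript used above, so it is not printed. The VIM window stands at 1 of 4 coding starts of VIM, that of its RefSeq-matched transcript. The motif counts for VIM describe that window only. NES has 1 coding start, and its window stands there. Of the 4 genes 3 had a window. No binding was measured here, and a match is a description of letters only.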

How the data were processed

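Total RNA (1 ug per library) went to BGISEQ-500 sequencing, per the labels' protocols. The submitters' processing notes name hg19 and Bowtie 0.12.2. The counter, quantifier, test, strand setting and filters were not given in the sources used here. The authors' deposited table gives each row a level, read as FPKM because levels scale with inferred reads and length (the header says expression only, and RPKM cannot be told apart). It also gives a log2 ratio, which equals log2 of the 2 deposited levels, and a p-value with its false discovery rate, deposited by the authors without the name of the test. The largest rate is 0.000990, and the lowest level, 0.01 FPKM, stands for a value at or near 0. Ratios of p-value to rate gave whole ranks for 18489 tested genes.

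Reads were inferred with Python 3.11.15 and scipy 1.17.1. P-values of rows at the floor in the scramble library fell on whole steps for 68 of 75 rows (within 0.02), which gave a depth ratio of 1.03 (scramble over Tfcp2l1 shRNA). Depths were about 22690000 reads (Tfcp2l1 shRNA) and 23470000 reads (scramble), with a length offset of 66.5 bases, from 594 rows. A pair of whole reads that fits both levels and a doubled-tail Poisson test of 2 libraries, within 0.0002 on the natural log of p, was found for 1480 of 1926 rows with a p-value above 0 (76.8%). KRT16 and TFCP2L1 had such a pair. KRT8, VIM, NES and DSP have a p-value printed as 0, and LMNB1 had no single pair, so their reads come from the FPKM. The inference was run on a simulated table whose p-values came from the same doubled-tail test. That run cannot show whether the authors' unnamed test has this form. The sources name no molecular identifiers, so reads may not be independent molecules and intervals speak of counting error alone.

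The plan kept to levels, log2 ratios with 0.1 FPKM added and intervals, since there was 1 library per group. Members and lists were chosen with earlier results of these data known. Named genes are the 4 rows, every listed gene of the filament lists, up to 3 highest and 3 lowest of each other list, the 3 rows nearest to VIM, NES and KRT8, and TFCP2L1. Alternatives were 1 FPKM or nothing added, inferred reads, no minimum level and intervals wholly beyond 2-fold. Shared words and coding bases came from the longest coding GENCODE 29 transcript matched to a RefSeq mRNA. Some genes and sequences that these choices would give are not reported here.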

Additional observations from a re-analysis of the deposited data

How the results depend on the processing

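Of 22 results under other settings, 20 kept their direction and stayed within the counting interval or within 1.5 times the count. Part of this was fixed in advance. The ratio of inferred reads always lies in the interval, which is built from the same reads. For KRT8, VIM and NES those reads came from the levels, so the deposited log2 ratios had to agree as well. The count of 20 thus overstates how far the settings check the results. KRT16 was the gene that moved: its log2 ratio was 0.91 with 1 FPKM added, against 2.55 with 0.1 FPKM added, 3.42 as deposited by the authors and 3.37 by inferred reads, since 1 FPKM is close to its whole level. Members at least 2-fold higher then numbered 3, with KRT16 the one that dropped out, and 4 under the other settings. Rows at least 2-fold lower over the whole table numbered 364 with 1 FPKM added, against 710. Rows at least 2-fold higher numbered 546 to 1020 under the alternatives, against 819. No paired analysis was possible because each group had 1 library. Depth limits KRT16, which had 4 scramble reads, and 1 library per group limits all 4 genes.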

Other observations

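Further rows of the table carry a name that begins with KRT without being keratins, and they were singled out after their values were seen. KRTAP5-1, a keratin-associated protein gene, was at 1.41 FPKM in the Tfcp2l1 shRNA library and 0.15 FPKM in the scramble library, on 28 reads with Tfcp2l1 shRNA and 3 with scramble (ratio 9.65, interval 2.98 to 49.6). KRTCAP3, a keratinocyte-associated protein gene, was lower, at 4.84 FPKM in the Tfcp2l1 shRNA library and 11.5 FPKM in the scramble library, on 93 reads with Tfcp2l1 shRNA and 227 with scramble (ratio 0.424, interval 0.329 to 0.542).

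The annotation in the authors' deposited table would have given another set of genes than the symbols do. An intermediate filament term stands under cellular component for 4 rows, VIM, KRT8, LMNB1 and SMARCA2, and under biological process for 3 rows, VIM, NES and SHH. KRT16 carries none.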
